A study of Mus musculus with 3 samples.

Results

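The metallothionein genes *Mt1* and *Mt2* and the zinc transporter gene *Slc30a8* were followed in single mouse islet cells, from 3 of the 17226 genes listed over 3 libraries. Unique molecular identifiers (UMIs) of each gene were summed over cells chosen by their hormone transcripts. Beta cells held at least 20% of UMIs from *Ins2* and under 3% from *Gcg*, alpha cells at least 15% from *Gcg* and under 10% from *Ins2*, and delta cells at least 5% from *Sst*. In the 1-week library, where hormone shares were lower, the minima were 5%, 8% and 1.5%, applied to barcodes of 5000 UMIs or more. This gave 8269 beta, 2772 alpha and 619 delta cells of 12000 barcodes in WT. It gave 561, 172 and 37 of 2295 barcodes at 1 week, and 5557, 2938 and 1242 of 11229 barcodes at 5 weeks.

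The libraries came from a study of *Taf4*, which encodes a subunit of the general transcription factor TFIID, in C57/Bl6 mice. Mutant animals (labelled TAF4 KO, *Taf4*b-/- in the study) carried floxed *Taf4* alleles and a Cre-ERT2 driven by *Ins1*, a promoter active in beta cells, and received tamoxifen at 11 to 13 weeks of age. Their islets were taken 1 week or 5 weeks later, with 300 islets pooled from 2 mice in each library, and the WT library (*Taf4*+/+) was made from 300 islets of 1 mouse. In the study the control animals carried the same Cre-ERT2 driver and received tamoxifen too, although the labels of the WT library state neither. Each condition was 1 library, so no test was possible, genotype, animal and library cannot be told apart, and the intervals in parentheses are exact 95% intervals for counting error only.

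Metallothioneins are small cysteine-rich proteins that bind zinc and copper, and the transcription factor MTF1 induces their genes when free zinc rises, through metal response elements with the core TGCACNC or TGCGCNC. Their transcripts also respond to glucocorticoids, oxidants and other stresses. *Slc30a8* encodes ZnT8, which carries zinc into the insulin granule, where zinc packs insulin into crystals, and alpha cells express it too.

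The promoters of the metallothionein genes are shown because both hold several copies of that core within a short window. *Mt2* (chromosome 8, 94172618 to 94173567) and *Mt1* (chromosome 8, 94178883 to 94180327) are neighbours on the plus strand, with their gene starts 6265 bases apart. *Slc30a8* lies on chromosome 15 (52295553 to 52335798). All positions and sequences are from RefSeq on GRCm38.p6, the assembly that mm10 stands for. Each sequence runs from 250 bases before a start site to 50 bases from it, 5′ to 3′ on the plus strand. For *Mt2* this site is the gene start, while for *Mt1* the table uses a site at 94179089, which lies 206 bases inside the gene as given above. Letters are in lower case, and capitals mark each match to TGCACNC or TGCGCNC on either strand.
Mt1, chr8:94178839-94179138, +: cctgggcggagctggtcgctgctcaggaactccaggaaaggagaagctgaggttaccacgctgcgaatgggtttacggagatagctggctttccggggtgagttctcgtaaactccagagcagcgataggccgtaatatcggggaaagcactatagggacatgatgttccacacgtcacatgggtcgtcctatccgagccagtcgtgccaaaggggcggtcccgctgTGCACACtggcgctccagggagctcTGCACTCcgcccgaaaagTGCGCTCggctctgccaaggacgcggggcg
Mt2, chr8:94172368-94172667, +: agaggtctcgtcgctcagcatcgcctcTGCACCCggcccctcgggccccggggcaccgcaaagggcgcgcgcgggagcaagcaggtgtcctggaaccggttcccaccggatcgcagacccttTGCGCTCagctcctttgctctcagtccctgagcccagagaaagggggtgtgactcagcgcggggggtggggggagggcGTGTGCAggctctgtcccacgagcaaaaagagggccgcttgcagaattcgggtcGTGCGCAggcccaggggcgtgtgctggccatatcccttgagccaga
The *Mt1* window held 3 matches, at -23, 2 and 20 bases from that start site, all on the plus strand. The *Mt2* window held 4, at -223 and -128 on the plus strand and at -50 and 4 on the minus strand. Of 32851 promoter windows of this length, 1.97% held 3 or more matches and 0.517% held 4 or more. Matches were also counted in the windows of other zinc handling genes, with 3 in *Slc30a4* and *Slc30a10* and 2 in *Slc30a1* and *Slc30a2*. The others with a window held 1 or 0, and *Mtf1* held 0. Of all windows, 25.7% held 1 or more and 7.11% held 2 or more. A match is a sequence and not a shown binding site.

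The WT mouse was labelled male, but that library held 17357 UMIs of *Xist* and 0 of 4 Y-linked genes, while the mutant libraries held 17 and 11 UMIs of *Xist* and 4267 and 3476 Y-linked UMIs. Comparisons with WT therefore also compare animals of unlike sex, and the ratio of 5 weeks over 1 week is given as the comparison without WT. Depth differed as well. The median beta cell held 1656 UMIs in WT, 24764 at 1 week and 3899 at 5 weeks, and 0% of WT beta cells had over 1500 detected genes against 93.0% at 1 week and 15.4% at 5 weeks. The libraries shared 2 to 33 barcodes pairwise. The 10 beta cell markers all had UMIs in the beta class of each library, as did the 6 alpha markers in the alpha class and the 4 delta markers in the delta class. *Taf4* itself was at 4.68, 7.55 and 3.52 CPM in beta cells of WT, 1 week and 5 weeks, from 75, 113 and 97 UMIs. These are 3′ tags, and whether they lie in the deleted part is not given in the sources used here, so they do not check the deletion.

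*Mt1* and *Mt2* were far higher in the 1-week library than in either other library, in beta, alpha and delta cells alike. Levels are counts per 1000000 UMIs of the class (CPM). In beta cells *Mt1* stood at 687 CPM in WT (674 to 700), 6193 at 1 week (6153 to 6233) and 974 at 5 weeks (963 to 986). *Mt2* stood at 73.3 CPM in WT (69.2 to 77.6), 2172 at 1 week (2148 to 2196) and 159 at 5 weeks (154 to 164). For both genes the 5-week level lay above WT and far below 1 week, and no interval of a beta level overlapped another.

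Alpha cells, which the *Ins1* driver is not meant to reach, followed the same order. *Mt1* was at 212 CPM in WT, 3144 at 1 week and 301 at 5 weeks, and *Mt2* was at 24.2, 927 and 47.2 CPM. The study reports beta cells changing into *Gcg*-expressing cells after *Taf4* loss, so the alpha class of the mutant libraries can hold former beta cells. Their part in the alpha levels was not tested. Delta cells, few in number at 1 week, held *Mt1* at 214, 1468 and 479 CPM. *Mt2* in delta cells was at 6.84 CPM in WT from 3 UMIs, 214 at 1 week and 63.1 at 5 weeks. In each library beta cells were thus the class with the highest level of both genes. Over the 9 levels of *Mt1* the only neighbours with overlapping intervals were delta and alpha cells of WT. Over those of *Mt2*, WT beta and 5-week delta cells overlapped, as did 5-week delta and 5-week alpha cells, and alpha and delta cells of WT.

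**Figure D1:**
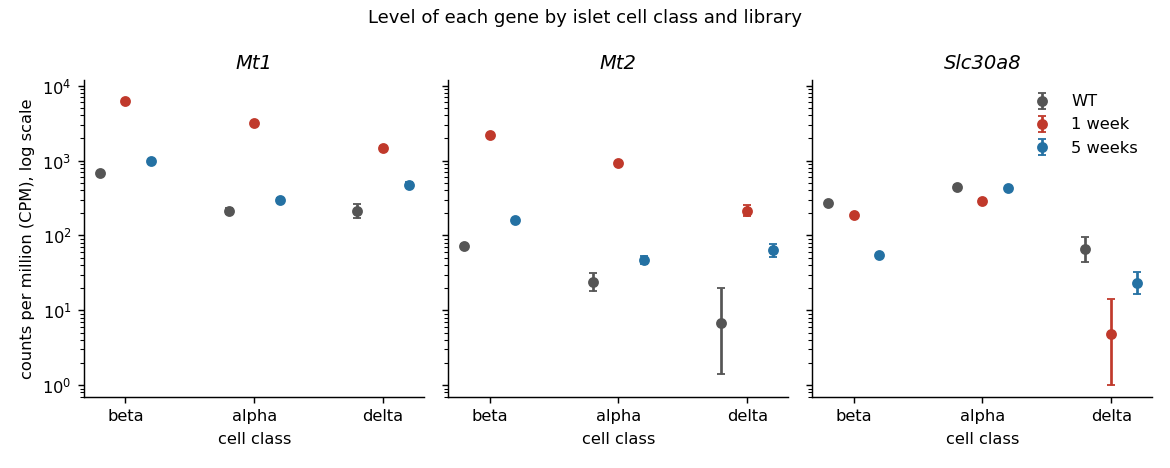
Level of Mt1, Mt2 and Slc30a8 in CPM (log axis) in beta, alpha and delta cells of the WT, 1-week and 5-week libraries; points are summed UMIs of a class and bars exact 95% Poisson intervals. The 1-week points of Mt1 and Mt2 lie above the other libraries in each class, while the 5-week point of Slc30a8 lies far below the others in beta cells but not in alpha cells.

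As ratios of 1 week over WT, *Mt1* was 9.02-fold higher in beta cells (log2 3.17, 3.14 to 3.20) and *Mt2* 29.6-fold higher (log2 4.89, 4.80 to 4.97). In alpha cells the log2 ratios were 3.89 (3.76 to 4.02) for *Mt1* and 5.26 (4.88 to 5.66) for *Mt2*. In delta cells they were 2.78 on 94 WT UMIs and 4.97 on 3 WT UMIs (3.39 to 7.26). Most genes were also higher at 1 week on this scale. The median log2 ratio over the genes with 100 or more UMIs was 1.15 in beta, 0.63 in alpha and 0.33 in delta cells, and 7 hormone genes took 68.0% of beta cell UMIs in WT against 42.8% at 1 week and 66.5% at 5 weeks. Thus 2 of the 3 genes were 2-fold or more higher in beta cells, where 57.7% of 9226 genes tested were, and 0 of 3 were 2-fold or more lower, where 2.46% were. In alpha cells 2 of 3 were higher against 32.4% of genes, and in delta cells 2 of 2 with enough UMIs against 20.4%. These shares depended on the scale. In beta cells 16.8% of genes were higher and 7.29% lower without the hormone UMIs, and 8.12% and 11.7% relative to the median gene. *Mt1* and *Mt2* were past 2-fold higher on each scale, and *Slc30a8* was past 2-fold lower on both of the latter, so that 1 of 3 genes was lower there. Relative to the median gene *Slc30a8* was past 2-fold lower in alpha cells too, at -1.25, where 12.0% of genes were higher and 13.6% lower. Without the hormone UMIs 19.9% of genes were higher and 8.36% lower in alpha cells, and in delta cells 11.1% were higher without them and 10.0% relative to the median.

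The share of all genes past 2-fold was large at 1 week, so the place of the metallothioneins among the genes tested is given as well. *Mt2* had the 15th and *Mt1* the 92nd highest ratio of 9226 genes in beta cells. In alpha cells they ranked 7th and 21st of 5226, and in delta cells 3rd and 14th of 1328. Relative to the median gene, *Mt1* was higher by 2.02 and *Mt2* by 3.74 on the log2 scale in beta cells. The published limits on detected genes and mitochondrial share left 17 of the 561 beta cells at 1 week. In these cells the log2 ratio of *Mt1* over WT was -0.50 and that of *Mt2* 1.71.

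At 5 weeks the ratios over WT were smaller in every class. *Mt1* was 1.42-fold higher in beta cells (log2 0.50, 0.47 to 0.54) and had the same log2 ratio of 0.50 in alpha cells (0.36 to 0.65). *Mt2* was 2.17-fold higher in beta cells (log2 1.12, 1.02 to 1.21) and had a log2 ratio of 0.97 in alpha cells (0.55 to 1.40), or 2.05 with cells thinned to 1000 UMIs (1.03 to 3.29, on 8 WT UMIs). In delta cells *Mt1* was 2.23-fold higher (log2 1.16, 0.85 to 1.48), but with stricter hormone shares for the class its log2 ratio was 0.34 (-0.03 to 0.73), which is under 2-fold and includes 0. The log2 ratio of *Mt2* in delta cells, 3.20, rested on 3 WT UMIs (1.62 to 5.51). The median gene was at 0.16 in beta, 0.05 in alpha and 0.10 in delta cells. Of the 3 genes, 1 was 2-fold or more higher in beta cells (*Mt2*; 6.09% of 9148 genes tested) and 1 was 2-fold or more lower (*Slc30a8*; 4.38%). In alpha cells 0 of 3 were higher (2.82% of genes) and 0 of 3 lower (1.47%), and in delta cells 2 of 2 were higher (4.87%). The call of *Mt2* in beta cells was lost relative to the median gene (0.95), and in alpha cells *Mt2* passed 2-fold without the hormone UMIs (1.11) and when thinned. *Mt1* ranked 2348th of 9148 in beta cells.

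Without WT, the ratio of 5 weeks over 1 week in beta cells was -2.67 for *Mt1* (-2.69 to -2.65), -3.77 for *Mt2* (-3.82 to -3.73) and -1.78 for *Slc30a8* (-1.87 to -1.69) on the log2 scale. All 3 genes were thus 2-fold or more lower, as were 49.5% of 9680 genes, and the median gene was at -0.99. Relative to that median *Mt1* and *Mt2* were still past 2-fold lower and *Slc30a8*, at -0.79, was not, and 5.44% of genes were lower. Without the hormone UMIs all 3 were past 2-fold lower, as were 9.08% of genes. *Mt2* had the 20th and *Mt1* the 131st lowest ratio of these.

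**Figure D2:**
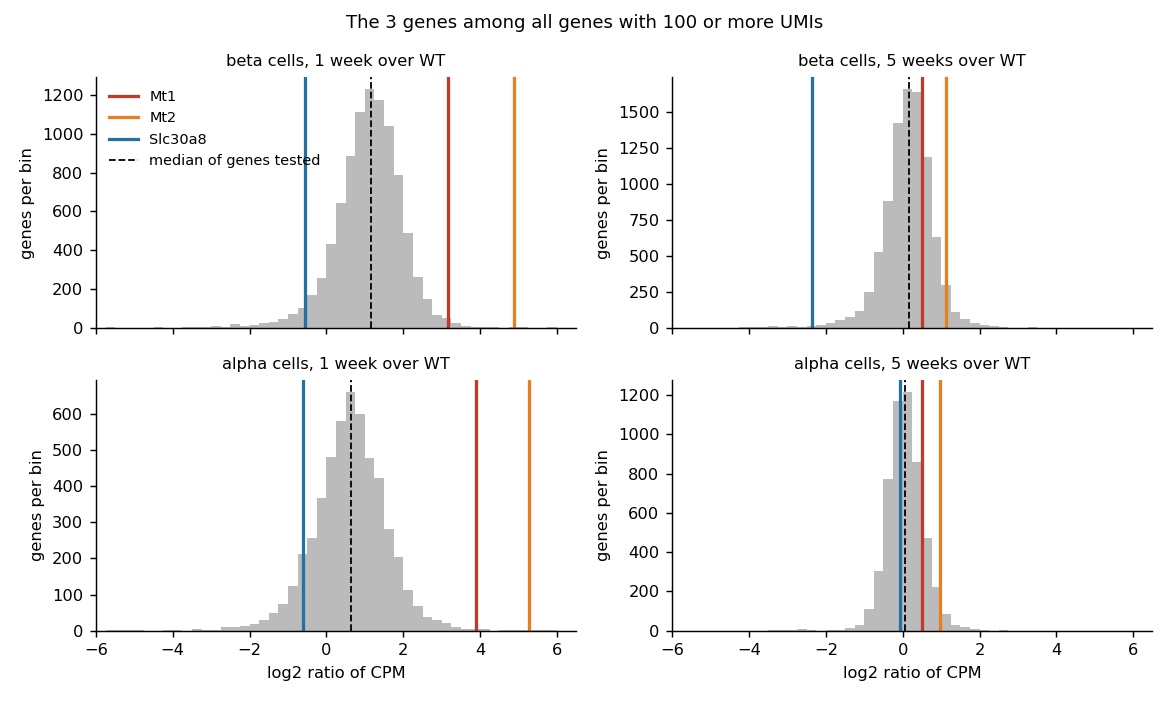
Histograms of the log2 ratio of CPM over WT for genes with 100 or more UMIs in the 2 libraries compared, in beta cells (top) and alpha cells (bottom), at 1 week (left) and 5 weeks (right); coloured lines mark Mt1, Mt2 and Slc30a8 and the dashed line the median gene. Mt2 lies in the right tail at 1 week in both classes, and Slc30a8 lies farthest left in beta cells at 5 weeks, at -2.35.

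The balance of both metallothionein transcripts differed between the libraries. *Mt2* made up 9.64% of *Mt1* plus *Mt2* UMIs in WT beta cells (9.13 to 10.2), 26.0% at 1 week (25.7 to 26.2) and 14.0% at 5 weeks (13.7 to 14.4). Alpha cells gave 10.2%, 22.8% and 13.6%, and delta cells 3.09%, 12.7% and 11.6%, with 97 UMIs in all behind the WT delta value. The genes are close paralogs, and reads that could not be placed between them would change this share, so the split is less certain than the sum. *Mt3*, the form best known from brain, was at 6.86, 2.80 and 6.27 CPM in beta cells of WT, 1 week and 5 weeks. *Mt4* was not among the genes listed in any of the libraries.

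Cells outside these classes also held metallothionein transcripts. In WT, 61 cells rich in acinar markers held *Mt1* at 2084 CPM (1855 to 2334) and *Mt2* at 286 CPM. At 1 week, 17 cells rich in macrophage markers held *Mt1* at 5321 CPM (4859 to 5814), and at 5 weeks 199 cells rich in endothelial markers held it at 250 CPM (193 to 318). These cell types differ between the libraries and make no comparison. The level of *Mt1* in 5-week alpha cells (287 to 315 CPM) overlapped that of the endothelial-rich cells. The part of free RNA in the alpha and delta levels was not tested. Acinar RNA moved with the libraries. The summed level of the 10 acinar markers was 4971 CPM in WT beta cells, 15.9 at 1 week and 565 at 5 weeks, 11007, 7.41 and 1679 CPM in alpha cells, and 14845, 6.43 and 2586 CPM in delta cells, with 0 of 10 markers at 0 in the beta cells of every library. *Mt1* was thus lowest in the library with most acinar RNA; the part of that RNA in the result was not tested.

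Within the 1-week library the metallothioneins varied widely from cell to cell. Over the 561 beta cells *Mt1* ran from 495 CPM at the 5th percentile through a median of 5075 to 16285 at the 95th, a 32.9-fold range. *Mt2* ran from 47.4 through 1530 to 6932 CPM, a 146-fold range, and 26 cells held none. The lower end was the level of a cell of 21083 UMIs, the lowest above 0 at that depth. The width of the *Mt2* range thus depends on the counting floor. The 172 alpha cells were less spread, with *Mt1* from 478 through 2844 to 6690 CPM, a 14.0-fold range. *Slc30a8* had a median of 166 CPM in beta cells and a 95th percentile of 430, with 67 cells at 0.

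To set the libraries side by side, each beta cell was thinned to 1000 UMIs, which left out 502 WT, 0 1-week and 205 5-week cells. The squared coefficient of variation beyond counting was 0.94 for *Mt1* in WT, 0.61 at 1 week and 1.05 at 5 weeks, against a median over genes of 0.062, 0.20 and 0.10. For *Mt2* it was 1.95, 1.07 and 0.81. Both were thus more uneven than the median gene in every library. Thinned to 2000 UMIs, *Mt1* gave 0.66 in WT, 0.71 at 1 week and 0.83 at 5 weeks, so its order over the libraries changed with thinning. For *Slc30a8* it was 0.036, 0.15 and 0.36, but 0.15, 1.53 and 0.11 when thinned to 500 UMIs, so no order of its spread over the libraries can be read at these counts. The most *Mt1*-rich 10% of beta cells held 44.6%, 28.8% and 42.0% of its UMIs, and 57.4%, 11.1% and 46.5% of cells had none.

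*Mt1* and *Mt2* went together from cell to cell at 1 week. Over thinned beta cells Pearson's r of log UMIs was 0.68 at 1 week, against 0.15 in WT and 0.12 at 5 weeks, where most cells had 0 *Mt2* UMIs and a weak r cannot be read. Without thinning, Spearman's rho at 1 week was 0.89 over 561 cells. The share of *Mt2* was larger in cells with more of both (rho 0.44 over 489 cells with 20 or more UMIs of the pair). For *Slc30a8*, r to either gene lay between -0.010 and 0.044 in the 3 libraries, and without thinning r to *Mt1* at 1 week was 0.15 (Spearman's rho 0.085). These coefficients describe cells of 1 library, which share its free RNA and its depth.

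The genes most like the sum of *Mt1* and *Mt2* over 1-week beta cells were *Eif1*, a translation initiation factor (r = 0.49), *Ftl1*, the ferritin light chain that stores iron (0.48), *Ddit3*, the stress-induced factor CHOP (0.48), *Nupr1*, a stress-induced nuclear protein (0.42), and *Actg1*, gamma actin (0.40), among 2237 genes with a median r of 0.064. The lowest were *mt-Co2* (-0.43), *mt-Co3* (-0.40) and *mt-Cytb* (-0.39), which encode respiratory chain subunits in mitochondria. In WT the highest were the heat shock genes *Hspa1a* and *Hspa1b* (both 0.17), *Fos* (0.16), *Jund* and *Dnajb1* (both 0.15), and at 5 weeks *Ubb*, *Actg1*, *Fos* and *Hsp90ab1* were among the highest (0.15 to 0.17). *Ins2* and *Ins1* were the lowest in both, at -0.17 and -0.14 in WT and -0.22 for each at 5 weeks, with *Tmed3* and *Scg2* next. Values of this size in sparse counts are no finding, and thinning to a fixed total sets abundant insulin transcripts against all others. For *Slc30a8* the 5 highest genes reached no more than 0.037 in WT, 0.16 at 1 week and 0.046 at 5 weeks.

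Lists of stress and granule genes placed the metallothioneins further. Of the integrated and ER stress list, 9 of 10 genes were detected at 1 week, all with a positive r to *Mt1* plus *Mt2*, *Ddit3* and the chaperone *Hspa5* highest (0.48 and 0.22) and *Chac1* lowest (0.03). Of the NRF2 and heavy metal list, 5 of 8 were detected, all positive, with *Sqstm1* (0.27) and *Gclm* (0.19) highest and *Srxn1* (0.05) lowest. Over all 2237 genes the median r was 0.064, the 5th percentile -0.039 and the 95th 0.172, so a positive sign was common and alone sets neither list apart. The median r was 0.145 in the stress list and 0.186 in the NRF2 list, above that of all genes. It was 0.063 in the glucocorticoid, 0.038 in the granule and 0.022 in the zinc handling list. *Chac1* and *Srxn1* lay below the median of all genes. The glucocorticoid list had *Nr3c1* (0.07) and *Klf9* (0.06) and the immediate early list *Jun* (0.15) detected. Of the granule list, *Scg2* (0.17) and *Cpe* (0.16) were highest and *Ins1* (-0.30) lowest. Of zinc handling genes, *Slc30a8*, *Slc39a7* and *Slc30a9* lay between 0.01 and 0.04, below the median gene.

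**Figure D3:**
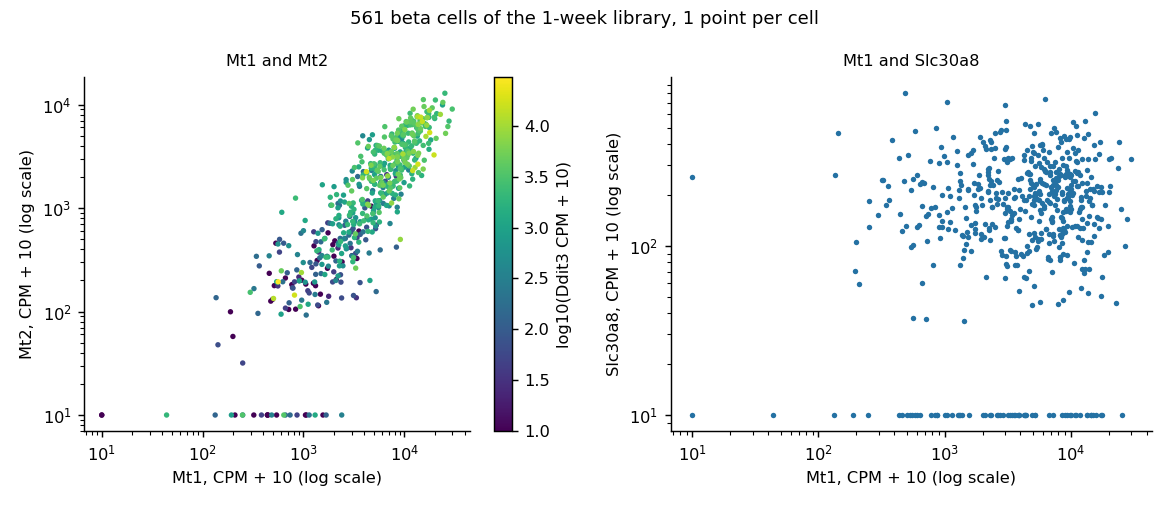
Each point is 1 of 561 beta cells of the 1-week library; left, Mt2 against Mt1 in CPM + 10 (log axes), coloured by the level of Ddit3; right, Slc30a8 against Mt1 on the same axes. Mt1 and Mt2 lie along a diagonal with the Ddit3-rich cells toward its upper end, while Slc30a8 and Mt1 have a Pearson r of 0.15.

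Beta cells were then divided into tertiles by their summed level of *Ddit3* and *Herpud1*, markers of the unfolded protein response. *Ddit3* was already among the genes most like *Mt1* plus *Mt2* at 1 week, so a climb over these tertiles there repeats that result. In CPM the sum was mostly *Ddit3* at 1 week (1942 against 360 for *Herpud1*). It was mostly *Herpud1* in WT (124 against 44.8) and at 5 weeks (544 against 184), so the split is unlike between libraries. At 1 week *Mt1* stood at 2895 CPM in the lowest tertile, 6760 in the middle and 9758 in the highest. *Mt2* stood at 630, 2434 and 3841 CPM. Even the lowest tertile of 187 cells therefore held more of both genes than WT beta cells. *Slc30a8* was at 177, 202 and 176 CPM, with no order on this scale. Without the hormone UMIs it fell from 434 through 334 to 237 CPM. At 5 weeks *Mt1* was at 806, 934 and 1200 CPM over the tertiles and *Mt2* at 143, 153 and 183 CPM. In WT, where most cells had no UMI of either stress gene and the lower tertiles are tied, *Mt1* was at 621, 628 and 798 CPM. Median depth of the tertiles at 1 week was 25542, 26430 and 22838 UMIs.

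**Figure D4:**
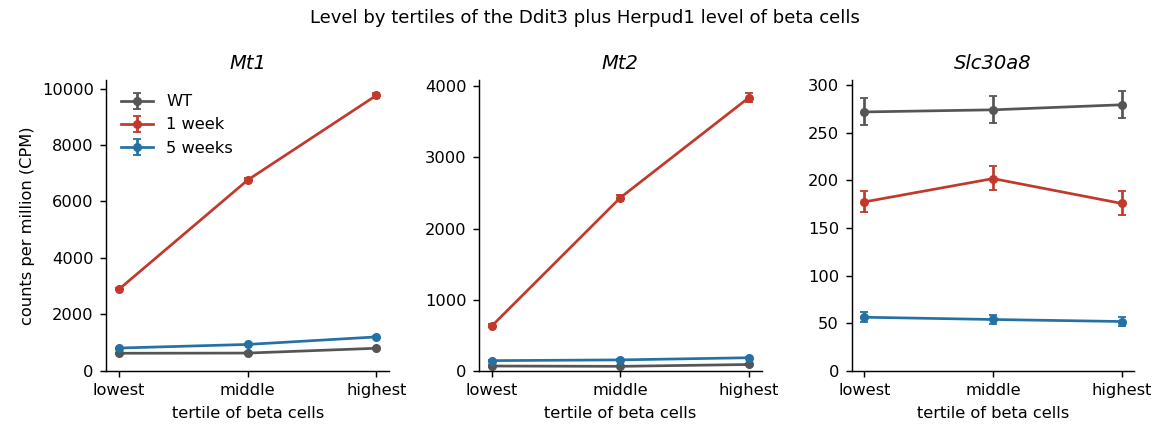
Level of Mt1, Mt2 and Slc30a8 (CPM) in beta cells divided into tertiles by Ddit3 plus Herpud1, by library; bars are exact 95% Poisson intervals, and the lower tertiles of WT are tied at 0. The 1-week line climbs steeply for Mt1 and Mt2, and the lines of Slc30a8 in CPM, which counts the hormone UMIs, are flat and ordered WT, 1 week, 5 weeks. The sum used for the split is mostly Ddit3 at 1 week and mostly Herpud1 in WT and at 5 weeks.

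The median share of *Ins1* in the middle tertile was 15.3% for WT beta cells, 0.592% for those of 1 week and 1.77% for those of 5 weeks. Divided by this share, 1-week beta cells with the least *Ins1* held the most metallothionein in CPM. *Mt1* was at 8754, 7092 and 4165 CPM from the lowest to the highest *Ins1* tertile and *Mt2* at 3193, 2653 and 1280 CPM. Without the hormone UMIs neither gene kept this order, with *Mt1* at 10810, 10986 and 10699 CPM and *Mt2* at 3944, 4110 and 3288 CPM. By mitochondrial share *Mt1* was at 7588, 6371 and 4141 CPM, with medians of 1.03%, 2.40% and 6.25%. The order by mitochondrial share was the opposite in WT (588, 704 and 819 CPM) and at 5 weeks (779, 999 and 1345 CPM). The insulin and mitochondrial transcripts share their total with *Mt1*, so these orders are not independent of the scale.

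*Slc30a8* was lower in mutant than in WT beta cells, and at 5 weeks this was the largest difference among zinc handling genes tested. It stood at 275 CPM in WT (267 to 283), 185 at 1 week (178 to 192) and 54.0 at 5 weeks (51.3 to 56.8), from 4414, 2773 and 1488 UMIs. In alpha cells it stood at 444 CPM in WT (418 to 472), 289 at 1 week (272 to 307) and 426 at 5 weeks (410 to 443). The alpha level at 5 weeks thus overlapped that of WT, in a class that can hold former beta cells. In delta cells it was at 66.1 CPM from 29 UMIs, 4.82 from 3 UMIs and 23.5 from 38 UMIs. In order of level, alpha cells of WT and 5 weeks came first and overlapped, alpha cells at 1 week and WT beta cells overlapped, and 5-week beta cells overlapped WT delta cells.

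The log2 ratio over WT in beta cells was -0.57 at 1 week (-0.64 to -0.50) and -2.35 at 5 weeks (-2.44 to -2.27), which is 5.10-fold lower. In alpha cells it was -0.62 (-0.75 to -0.50) and -0.06 (-0.16 to 0.05). The 5-week intervals of beta and alpha cells lay far apart, and those of 1 week overlapped on this scale, which counts the hormone UMIs. *Slc30a8* had the 92nd lowest ratio of 9148 genes in beta cells at 5 weeks and the 372nd lowest of 9226 at 1 week. Since the median gene was higher at 1 week, its ratio there was -1.72 relative to the median. Counted without the UMIs of 7 hormone genes, *Slc30a8* was at 860 CPM in WT, 324 at 1 week and 161 at 5 weeks in beta cells, and at 759, 391 and 803 CPM in alpha cells. On that scale the step from WT to 1 week was larger than the step from 1 week to 5 weeks in beta cells. It was also larger than the step from WT to 1 week in alpha cells.

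The share of cells with a *Slc30a8* UMI followed the levels. After thinning to 500 UMIs it was 13.5% of WT beta cells (12.8 to 14.3), 6.42% at 1 week (4.53 to 8.77) and 2.61% at 5 weeks (2.21 to 3.06), and 39.6%, 88.1% and 22.0% without thinning. In alpha cells it was 20.1%, 12.8% and 19.7%, and 31.0%, 91.9% and 53.3% without thinning. Endothelial-rich cells at 5 weeks, which should lack the gene, gave 0 of 199 cells after thinning, at a median of 1200 UMIs. With 0 set to 3 cells, this allows up to 1.51%. Without thinning 2 of them (1.01%) had a UMI. The 0.966% of thinned 5-week delta cells, at a median of 1146.5 UMIs, was below that limit and cannot be told from background. Without thinning the delta share was 2.82%. The thinned 5-week beta cells, at a median of 3899 UMIs, lay above the limit. In WT 4 of 61 acinar-rich cells had a UMI, 6.56% (1.82 to 15.9), at a median of 1365 UMIs, a range that includes the share of WT beta cells. Their level of 55.8 CPM (24.1 to 110) lay below the 275 CPM of WT beta cells. At 1 week the 0 of 37 delta cells allow up to 8.11%, so the shares do not separate these classes there, while the CPM of beta and delta cells, 185 and 4.82, do.

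By tertiles of the beta cells *Slc30a8* moved little in CPM. Over *Ins1* tertiles at 1 week it was at 184, 191 and 182 CPM, and at 5 weeks at 57.2, 55.2 and 51.0 CPM. Counted without hormones the 1-week values were 227, 295 and 469 CPM, highest where most *Ins1* remained. By depth its level at 5 weeks was 59.1, 52.4 and 53.5 CPM from the shallowest to the deepest tertile. No tertile at 5 weeks reached the level of any tertile in WT, where the lowest was 252 CPM.

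Among the 29 genes of the zinc handling list, which holds the members, 20 had 100 or more UMIs over WT and 1-week beta cells. Of these 11 were 2-fold or more higher, 1 lower and 8 between, where 57.7% of all genes were higher and 2.46% lower, with a median log2 ratio of 1.18 against 1.15 over all genes. After the metallothioneins the highest were *Slc30a1*, the plasma membrane zinc exporter and a known MTF1 target (2.05, 1.65 to 2.48), *Slc39a3*, a zinc importer (2.02, 1.67 to 2.39), and *Slc39a11* (2.01, 1.30 to 2.78). *Slc39a14*, which imports zinc and iron, was at 1.54, *Slc30a4* at 1.49, *Slc39a7*, which releases zinc from the ER, at 1.43, *Slc30a5* at 1.37, *Slc30a9* at 1.34 and *Slc39a9* at 1.01. *Slc39a6*, *Mtf1*, *Slc39a1*, *Slc39a13*, *Slc30a6* and *Slc39a10* ran from 0.88 down to 0.31. *Slc30a8* was thus 1 of 3 tested genes of the list below 0, with *Slc30a7*, a transporter of the secretory pathway (-0.29, -0.61 to 0.02), and *Mt3* (-1.29, -1.84 to -0.76).

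At 5 weeks 2 of 20 were 2-fold or more higher in beta cells (*Slc39a11* at 1.20 and *Mt2*), 1 lower (*Slc30a8*) and 17 between, where 6.09% and 4.38% of all genes were, with a median of 0.35 against 0.16. *Slc30a1* was at 0.40 (-0.04 to 0.85) and *Mtf1* at 0.77 (0.52 to 1.02). The next lowest after *Slc30a8* were *Slc39a10* (-0.58), *Slc39a1* (-0.54) and *Slc30a7* (-0.48). In alpha cells 0 of 9 tested were higher and 0 lower at 5 weeks (2.82% and 1.47% of all genes), and at 1 week 4 of 8 were higher and 0 lower (32.4% and 4.88%). *Slc30a1* was at 3.93, 16.3 and 5.19 CPM in beta cells of WT, 1 week and 5 weeks and at 2.54, 13.7 and 9.72 CPM in alpha cells, from 6 UMIs in WT alpha cells.

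**Figure D5:**
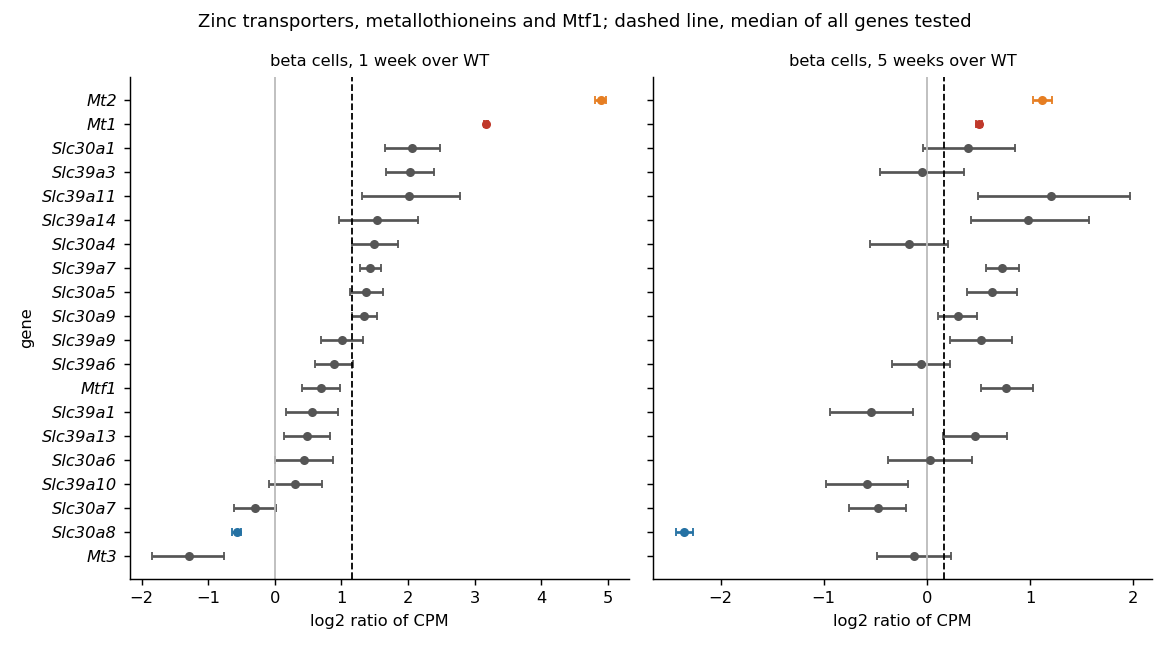
Log2 ratio of CPM over WT in beta cells for the 20 zinc handling genes with 100 or more UMIs, at 1 week (left) and 5 weeks (right), ordered by the 1-week value; bars are exact 95% intervals for counting error and the dashed line is the median of all genes tested. Mt2 and Mt1 lie apart at the top at 1 week, and Slc30a8 lies apart at the bottom at 5 weeks, at -2.35.

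Other lists moved with the same libraries in beta cells, where 57.7% of all genes were higher and 2.46% lower at 1 week. At 1 week 9 of 10 integrated and ER stress genes were 2-fold or more higher than WT and 0 lower (median log2 3.02), and 7 of 7 NRF2 and heavy metal genes were higher (2.92). Of the glucocorticoid list 3 of 7 were higher and 1 lower (0.97), of the immediate early list 0 of 7 were higher and 5 lower (-1.53), and of the granule list, which holds *Slc30a8*, 1 of 12 was higher and 2 lower (0.50), where the median gene was at 1.15. At 5 weeks the counts higher and lower were 5 and 0 of 10, 1 and 1 of 7, 2 and 0 of 8, 7 and 0 of 7, and 0 and 2 of 12 in the same order, against 6.09% and 4.38% of all genes and a median gene of 0.16. The part of these responses in the metallothionein levels was not tested.

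Over the 9 levels of 3 classes in 3 libraries, the genes most like *Mt1* were *Creg1*, a secreted glycoprotein (r = 0.98), *Mt2* (0.97), *Pparg* (0.96), *Rhbdd1* (0.96) and *Rab6a* (0.95), among 8746 genes with 300 or more UMIs. *Creg1* was at 158, 602 and 206 CPM in beta cells of WT, 1 week and 5 weeks. Those most like *Mt2* were *Mt1*, *Sgpl1* (0.97), *Arfgef2* (0.97), *Rhbdd1* (0.97) and *Tbc1d10a* (0.94). Those most like *Slc30a8* were *Cadps*, which primes dense-core vesicles for release (0.95), *Prkd1* (0.94), *Lpl*, lipoprotein lipase (0.93), *Cbs* (0.92) and *Slc7a2*, a transporter of cationic amino acids (0.92). *Cadps* was at 44.6, 47.1 and 22.5 CPM in beta cells and 72.5, 108 and 51.2 CPM in alpha cells. Levels of 1 library share its depth and free RNA, so these coefficients are a description.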

How the data were processed

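Per the labels and the study's methods, live islet cells were captured with 10x Genomics Chromium and 3′ reads were aligned to mm10 and counted with Cell Ranger 3.1. The deposited values are raw UMI counts per gene and barcode. The authors removed doublets in WT only and scaled that library to 12000 cells. Library totals were 19472212, 23131247 and 39408284 UMIs. The members and lists here were chosen with earlier results of these data known.

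UMIs were summed per class and divided by the class total (CPM). Barcodes meeting more than 1 class rule were left out (2 in WT, 1 at 1 week, 201 at 5 weeks), as were 1415 1-week barcodes under 5000 UMIs, and no doublet caller was run. Genes with 100 UMIs over both libraries were compared, called at 2-fold, and a count of 0 was set to 3 when ranking. Intervals were exact Poisson, conditional binomial and Clopper-Pearson (95%; Python 3.11.15, numpy 2.4.6, scipy 1.17.1, pandas 2.3.3; figures with matplotlib 3.10.9). Scripts were tested on simulated counts. Thinning was without replacement. Cells rich in other markers had 10% acinar, or 0.5% macrophage or endothelial, marker UMIs and under 20% hormone UMIs, chosen after seeing the data, as were the tertiles.

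Named genes were the 3 members, *Taf4*, zinc handling genes with 20 UMIs in beta cells of any library, the 5 highest and 3 lowest r to the members in thinned beta cells (genes detected in 5% of them; those of *Slc30a8* by their range), the 2 highest and 1 lowest of each list at 1 week, and the 5 most alike over 9 levels by log2(CPM + 1). Of the genes this rule names, 1 is not reported here. Windows and positions came from RefSeq GRCm38.p6, which matched all 3 genes by symbol for position and *Mt1* and *Mt2* for a promoter. Alternatives were hormone-free CPM, median-centring, thinning, means over cells, other class rules, the published cell limits (200 to 1500 genes, under 15% mitochondrial UMIs), and other minima of UMIs.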

Additional observations from a re-analysis of the deposited data

Results flagged for a closer look

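*Slc30a8* differed between cell classes in the comparison of 5 weeks over 1 week. Its log2 ratio was -1.78 in beta cells (-1.87 to -1.69) but 0.56 in alpha cells (0.46 to 0.67), and 2.28 in delta cells on 3 UMIs at 1 week (0.63 to 4.62). With 1 library per time point the difference between classes was not tested. Relative to the median gene of each class it remained, at -0.79 in beta and 1.11 in alpha cells.

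Barcodes of the 1-week library under 5000 UMIs, which were left out of the classes, held both metallothioneins above every WT class, *Mt1* at 2419 CPM (2351 to 2488) and *Mt2* at 907 CPM (865 to 949). Among them, 782 that met the beta rule of the other libraries held *Mt1* at 4154 CPM, *Mt2* at 1494 CPM and *Slc30a8* at 148 CPM at a median of 588 UMIs.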

How the results depend on the processing

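Of 54 alternative values for the 6 beta cell ratios over WT, 53 kept their direction. Without hormone UMIs the log2 ratios at 1 week were 2.34 for *Mt1*, 4.05 for *Mt2* and -1.41 for *Slc30a8*, and 0.44 for *Mt1* at 5 weeks. Centred on the median gene they were 2.02, 3.74 and -1.72 at 1 week and 0.34, 0.95 and -2.51 at 5 weeks. Thinned to 1000 UMIs, *Mt1* and *Mt2* at 5 weeks were at 0.65 and 1.23. As means over cells, *Mt1* was at 3.13 at 1 week, and *Mt1* and *Mt2* were at 0.61 and 1.28 at 5 weeks. With the WT class rule also at 1 week, *Mt1* was at 2.99 and *Mt2* at 4.68.

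The published limits on detected genes and mitochondrial share together left 17 of 561 beta cells at 1 week, all of 5000 UMIs or more, with 75 *Mt1* UMIs. In these *Mt1* reversed to -0.50, *Mt2* was at 1.71 and *Slc30a8* at -1.82. Together with the WT class rule and no minimum of UMIs, chosen after seeing the data, they left 776 cells with *Mt1* at 2.32, *Mt2* at 4.07 and *Slc30a8* at -1.14. All 8269 WT beta cells were within these limits. Under the limits, *Mt1* at 1 week over WT in alpha cells was -0.66 (1 cell), and *Mt1* at 5 weeks over 1 week was 1.03 in beta, 1.12 in alpha and 0.26 in delta cells, or 0.14 in delta cells with the WT rule. *Slc30a8* at 5 weeks over WT in alpha cells was 0.082 without hormones and 0.042 thinned. The published limits gave no value for *Slc30a8* in 1-week alpha and delta cells. The cause of these differences was not tested, apart from the number of cells left.

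Of 181 other ratios 174 kept their direction. Thinning to 500 UMIs lowered r of *Mt1* with *Mt2* to 0.066 in WT and 0.071 at 5 weeks, and the other 28 values on the spread and r of *Mt1* and *Mt2* moved by less than 1.5 times. The spread of *Slc30a8*, examined after seeing the data, moved by more in 5 of 6 values. Of 36 shares of genes past 2-fold, 7 moved by more with another minimum of UMIs. With the other scales, also chosen after seeing the data, 24 of 36 did. With stricter hormone shares *Mt1* in delta cells at 5 weeks over WT was at 0.34, and with cells in 2 classes kept *Slc30a8* there was at -0.55 in place of -1.49. Depth limits the delta cell values, and with 1 library per condition the spread between animals is unknown.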
